A study of Homo sapiens with 36 samples.

Results

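The genes described here are 10 that encode the LPS receptor complex and the adaptors and kinases next to it: TLR4, LY96, CD14, TLR2, MYD88, TIRAP, TICAM1, TICAM2, IRAK2 and IRAK3. They were chosen by symbol and make up 10 of the 57500 genes counted. Expression was measured by polyA-selected RNA-seq in THP-1 cells, a human monocytic line of leukaemic origin, transduced with lentivirus for a short hairpin RNA that was non-target (shNT) or aimed at NR4A2 (shNR4A2) or NR4A3 (shNR4A3). Each line was kept at 5% or 10% CO2 in buffered medium for 4 h, and the LPS-treated cells received 2.5 µg/ml LPS for the final 2 h, whereas the others received none (basal). This gave 12 conditions of 3 replicates, 36 libraries in all. The study describes the 3 replicates as individual experiments. Whether a line was 1 clone or a pool is not given in the sources used here.

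LPS, the outer-membrane glycolipid of Gram-negative bacteria, is handed by the co-receptor CD14 to MD-2, the product of LY96, which sits on the ectodomain of TLR4. Signalling then runs along separate routes. At the plasma membrane TIRAP bridges TLR4 to MyD88, which assembles IRAK kinases (IRAK2 among them) and leads to NF-κB and MAP kinases; from endosomes TRAM, the product of TICAM2, bridges TLR4 to TRIF, the product of TICAM1, which leads to interferon genes. TLR2 recognises bacterial lipopeptides through MyD88, and IRAK-M, the product of IRAK3, is known in monocytes as a brake on the pathway.

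The libraries held 16171161 to 23929138 counts. All 10 monocytic and myeloid markers examined stood at 1 TPM or more in every library, TPM being each transcript's share of the library after correction for gene length, on a fixed total, while the T cell, erythroid, epithelial and fibroblast markers summed to at most 1.79 TPM per list and the B cell markers to 1.99 to 6.77 TPM. NR4A2 was lower in shNR4A2 than in shNT cells in all 4 conditions (log2 fold change -0.91 to -1.67, all called). NR4A3 was called lower in shNR4A3 cells in 3 of the 4 conditions. The exception was basal cells at 10% CO2 (-0.39 ± 0.49 SE, edgeR adjusted p = 0.736). The share of counts from mitochondrially encoded genes was 1.05 to 2.19% at 5% CO2 and 1.54 to 4.15% at 10% CO2. It therefore moved with CO2, and its part in the CO2 differences below was not tested. In bulk RNA, fewer cells expressing a gene and less RNA per cell cannot be told apart.

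Promoter sequence is shown for 5 of the genes, since TLR2, TICAM1 and IRAK2 rose with LPS in every line and TLR4 and CD14 are receptor components whose level differed between lines or with CO2. RefSeq entries (GRCh38.p14) were found for 8 of the 10 genes; LY96 and TIRAP were the others. The 250 bases before the RefSeq start follow, 5′ to 3′ on the gene's own strand. Capitals mark matches, on either strand, to GGGCGG (the SP1 box), GAGGAA (a PU.1 core) and the NF-κB consensus.
TLR4 (chr9:117704153-117704402, plus strand): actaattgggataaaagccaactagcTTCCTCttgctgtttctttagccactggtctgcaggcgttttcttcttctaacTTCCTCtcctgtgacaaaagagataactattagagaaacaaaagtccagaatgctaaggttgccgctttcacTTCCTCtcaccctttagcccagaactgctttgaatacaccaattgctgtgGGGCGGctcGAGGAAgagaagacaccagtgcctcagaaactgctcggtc
CD14 (chr5:140633176-140633425, minus strand): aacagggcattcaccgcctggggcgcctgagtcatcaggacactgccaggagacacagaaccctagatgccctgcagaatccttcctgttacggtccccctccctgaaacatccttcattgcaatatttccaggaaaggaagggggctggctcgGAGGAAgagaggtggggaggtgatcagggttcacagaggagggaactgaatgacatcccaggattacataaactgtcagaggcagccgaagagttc
TLR2 (chr4:153684030-153684279, plus strand): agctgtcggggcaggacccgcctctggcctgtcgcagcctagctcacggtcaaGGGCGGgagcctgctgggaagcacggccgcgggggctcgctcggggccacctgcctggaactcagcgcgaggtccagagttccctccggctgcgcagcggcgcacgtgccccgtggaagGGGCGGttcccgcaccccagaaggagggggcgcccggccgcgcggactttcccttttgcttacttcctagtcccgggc
TICAM1 (chr19:4831713-4831962, minus strand): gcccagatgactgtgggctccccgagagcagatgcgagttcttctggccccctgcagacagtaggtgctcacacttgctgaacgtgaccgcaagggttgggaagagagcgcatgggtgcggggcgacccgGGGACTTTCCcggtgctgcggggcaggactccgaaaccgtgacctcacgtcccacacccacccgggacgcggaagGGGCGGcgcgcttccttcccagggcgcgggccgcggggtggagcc
IRAK2 (chr3:10164669-10164918, plus strand): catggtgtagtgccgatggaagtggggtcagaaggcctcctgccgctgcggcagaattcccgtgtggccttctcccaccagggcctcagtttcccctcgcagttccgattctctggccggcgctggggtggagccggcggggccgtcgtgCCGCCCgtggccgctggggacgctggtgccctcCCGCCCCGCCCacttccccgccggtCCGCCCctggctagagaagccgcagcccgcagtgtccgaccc
These letters are common. Among 35116 promoters of the same length, GGGCGG was found in 42.6%, GAGGAA in 23.6% and the NF-κB consensus in 9.96%. The TLR4 window held GAGGAA at 4 places, starting at -224, -171, -99 and -40 relative to the RefSeq start, and GGGCGG at 1. The CD14 window held GAGGAA at 1 place and no GGGCGG. TLR2 held GGGCGG at 2 places and IRAK2 at 4, whereas TICAM1 held it at 1 and was the single one of the 8 genes with an NF-κB consensus, at -120. AAAGGTCA, the NBRE bound by NR4A factors, was found in 1.05% of all promoters and in 0 of the 8 windows. A match describes the letters only, and a missing match says nothing of the factor. For TLR2 the RefSeq start lies well upstream of the row counted (chr4:153701500-153705699, plus strand), and the CD14 window lies inside the counted row (chr5:140631728-140633701, minus strand).

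The levels of the genes, which TPM allows to be set side by side, spanned a wide range in basal cells. TLR2 stood highest, with a median of 85.5 TPM over 18 libraries (62.2 to 119.5), followed by MYD88 at 65.2 (53.4 to 71.7) and IRAK3 at 48.3 (35.7 to 66.4). CD14 (31.8, range 10.7 to 66.7), TICAM1 (21.2, range 15.9 to 28.4), TLR4 (16.8, range 10.7 to 26.1) and TIRAP (12.5, range 9.96 to 15.3) lay in between, and IRAK2 stood at 6.75 TPM (4.41 to 11.9). TLR4 itself lay below TLR2 in every library. LY96 and TICAM2 were close to the floor. LY96 (chr8:73991352-74029087, plus strand) had 1 to 20 counts per library and TICAM2 0 to 13, with 0 in 3 of the LPS libraries, so their differences were poorly resolved at this depth.

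TICAM2 (chr5:115578650-115602479, minus strand) did not pass the filter on low counts, so 9 of the 10 genes were tested. Of its exon bases, 82.2% lie in the TMED7-TICAM2 read-through row on the same strand and 11.2% in the antisense gene TICAM2-AS1, and reads shared by several rows may have been lost from its count. The TMED7-TICAM2 row held 2 to 23 counts. TMED7, the neighbouring gene, held 865 to 1869. TIRAP (chr11:126283065-126298845, plus strand) shares 22.5% of its exon bases with genes on the opposite strand, and as the strand setting of the counting is not given, reads from them cannot be told apart.

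**Figure D1:**
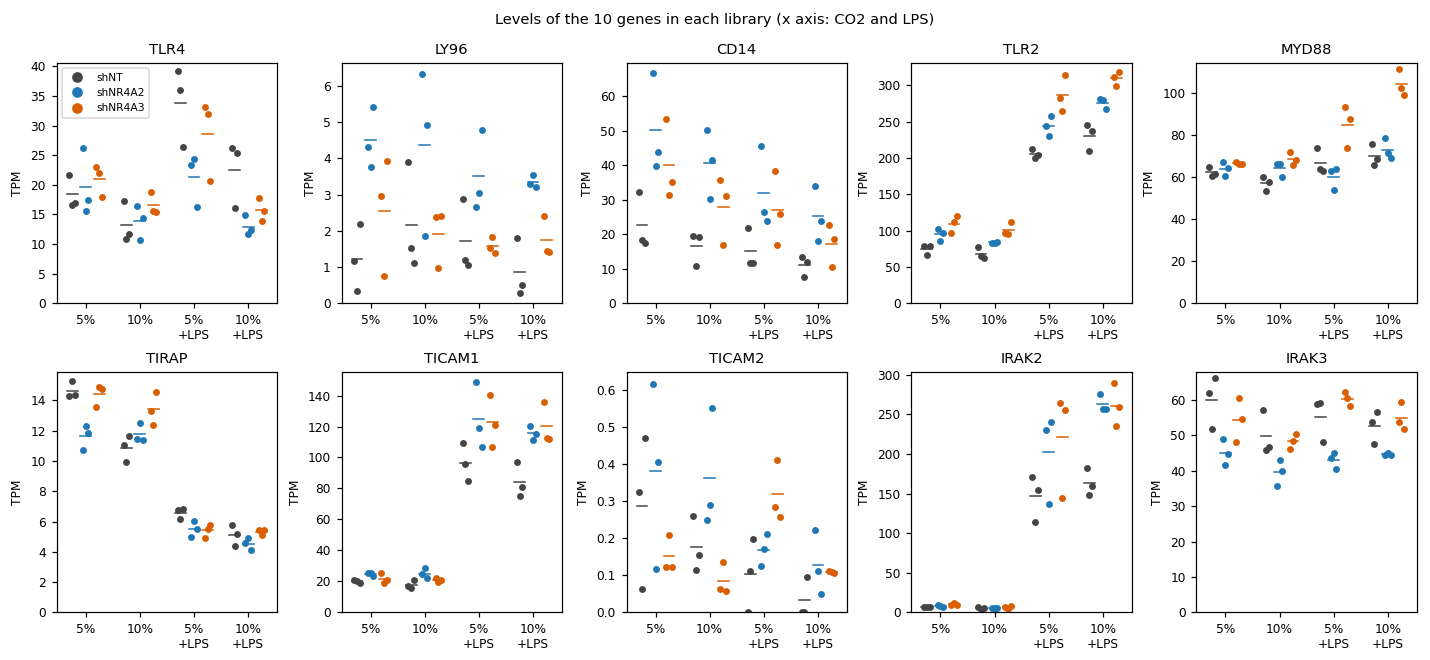
Levels of the 10 genes in TPM (y axis, linear, from 0) in each of the 36 libraries, by CO2 and LPS (x axis) and line (colour); points are libraries and short bars the means of 3. IRAK2, TICAM1 and TLR2 stand apart between basal and LPS cells in all lines, TIRAP stands lower with LPS, and LY96 and TICAM2 stay near 0.

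The first comparison asked how 2 h of LPS changed these transcripts in each line and at each CO2 level. IRAK2, TICAM1 and TLR2 rose in 6 of 6 comparisons and TIRAP fell in 6 of 6, with no overlap between basal and LPS libraries. In TPM 8.04% to 12.2% of all tested genes lay wholly above and 35.5% to 44.2% wholly below with LPS, so the separation of TIRAP was a common one. In shNT cells at 5% CO2, 5 of the 9 genes rose, where 11.2% of all 17720 tested genes did, and 1 fell (11.6%). At 10% CO2 the counts in shNT cells were 6 higher (15.1%) and 1 lower (16.1%). In shNR4A2 cells they were 3 higher (8.91%) and 1 lower (9.26%) at 5% CO2 and 5 higher (16.5%) and 1 lower (18.5%) at 10% CO2. In shNR4A3 cells they were 6 higher (11.9%) and 1 lower (13.4%) at 5% CO2 and 5 higher (20.6%) and 1 lower (21.5%) at 10% CO2. The median log2 fold change of the 9 genes lay between 0.20 and 0.66, against -0.01 to 0.00 for all tested genes.

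IRAK2 (chr3:10164865-10243743, plus strand), a kinase of the MyD88 complex, had the largest fold change of the 9 genes in each comparison. In shNT cells it went from 6.39 to 7.36 TPM to 115 to 171 TPM at 5% CO2 and from 4.41 to 6.78 to 148 to 182 TPM at 10% CO2. In shNR4A2 cells the LPS libraries held 137 to 240 TPM at 5% CO2 and 256 to 276 at 10% CO2, and in shNR4A3 cells 145 to 264 and 235 to 289. Replicate 2 was the lowest of the LPS libraries at 5% CO2 in each line (115, 137 and 145 TPM), and at 10% CO2 the replicates lay closer together. The log2 fold change was smallest in shNT cells at 5% CO2 (4.65 ± 0.18 SE, edgeR adjusted p = 4.13e-09) and largest in shNR4A2 cells at 10% CO2 (5.92 ± 0.13 SE, edgeR adjusted p = 7.97e-14). These are 25.1-fold and 60.5-fold.

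TICAM1 (chr19:4815932-4831704, minus strand), which encodes TRIF, went from 18.8 to 21.2 TPM to 84.8 to 109.7 TPM in shNT cells at 5% CO2, and over all lines from 15.9 to 28.4 to 75.3 to 148.5 TPM. Its log2 fold change was 2.49 ± 0.12 (SE, edgeR adjusted p = 5.58e-11) in that comparison and up to 2.79 ± 0.11 elsewhere. TLR2 rose from 66.9 to 79.3 TPM to 200.3 to 213 TPM in shNT cells at 5% CO2, with log2 fold changes of 1.62 to 2.03 over the 6 comparisons. A receptor that does not itself bind LPS, and the adaptor of the endosomal route, rose several-fold within 2 h. TIRAP, the bridge to MyD88, moved the other way, from 14.3 to 15.3 TPM to 6.17 to 6.81 TPM in shNT cells at 5% CO2. Its log2 fold change lay between -0.82 ± 0.17 and -1.19 ± 0.14 (SE; edgeR adjusted p from 1.33e-05 to 0.00377).

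MYD88 (chr3:38138478-38143022, plus strand), the adaptor shared by most Toll-like receptors, changed less. It rose in 5 of 6 comparisons, by 0.33 ± 0.09 on the log2 scale in shNT cells at 5% CO2 (edgeR adjusted p = 0.0167) and by 0.88 ± 0.08 in shNR4A3 cells at 10% CO2 (edgeR adjusted p = 1.29e-06). In that line MYD88 stood at 65.8 to 71.7 TPM without and 99.0 to 111 TPM with LPS. In shNR4A2 cells at 5% CO2 the LPS libraries (53.8 to 63.9 TPM) overlapped the basal ones (60.2 to 67.2 TPM) and the difference was 0.18 ± 0.13 (edgeR adjusted p = 0.388). The call in shNT cells at 5% CO2 rested on single libraries: without LPS replicate 1 the adjusted p was 0.101 and without basal replicate 3 it was 0.0741. IRAK3 (chr12:66188879-66254622, plus strand) was nearly level in TPM. Its 18 basal libraries held 35.7 to 66.4 TPM and the 18 LPS libraries 40.4 to 62.4 TPM, and small rises (0.35 to 0.46 on the log2 scale) were called in 4 of 6 comparisons, the exceptions being shNT and shNR4A2 cells at 5% CO2. In shNT cells at 10% CO2 the call was lost without basal replicate 2 (adjusted p = 0.0763) or LPS replicate 3 (0.0526), and on library size alone the values in shNT and shNR4A2 cells at 5% CO2 turned negative (-0.07 and -0.02).

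TPM is a share of the library. The median tested gene stood 0.23 to 0.29 lower on the log2 TPM scale with LPS, and -0.25 to -0.18 on counts scaled by library size alone, whereas the log2 fold changes above are relative to TMM scaling, which sets the median gene near 0. On library size alone the values of TLR4 turned negative in shNR4A2 and shNR4A3 cells at 10% CO2 (-0.06 and -0.05), as did that of MYD88 in shNR4A2 cells at 5% CO2 (-0.04); none of these was called on either scale. The directions of IRAK2, TICAM1, TLR2 and TIRAP held under each scaling.

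**Figure D2:**
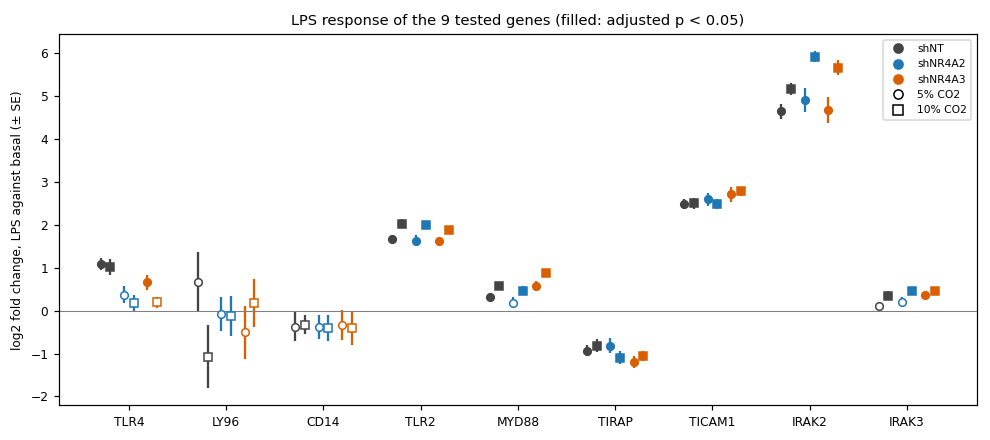
Log2 fold change with LPS against basal cells (y axis, ± SE, edgeR with TMM scaling) for the 9 tested genes (x axis), by line (colour) and CO2 (circles 5%, squares 10%); filled symbols have an adjusted p under 0.05. IRAK2 lies between 4.65 and 5.92, TICAM1 between 2.49 and 2.79 and TIRAP below 0 in all 6 comparisons, while TLR4 is filled in 3.

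TLR4 (chr9:117704332-117716871, plus strand) was the receptor gene whose LPS response was called in some lines and not in others. In shNT cells at 5% CO2 replicates 1, 2 and 3 held 21.6, 16.6 and 17.0 TPM without LPS and 39.2, 36.1 and 26.3 TPM with it, with no overlap. At 10% CO2 they held 17.2, 10.9 and 11.7 TPM without and 26.2, 16.1 and 25.4 TPM with LPS. In shNR4A2 cells the values at 5% CO2 were 26.1, 15.5 and 17.4 TPM against 23.4, 24.3 and 16.3 TPM. The LPS libraries of that line therefore lay within the basal range, and the same held at 10% CO2 (16.5, 10.7 and 14.3 TPM against 14.9, 11.7 and 12.3 TPM). Over all lines TLR4 was higher with LPS in 12 of 18 same-numbered pairs in TPM and in 18 of 18 on the TMM scale.

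In shNR4A3 cells TLR4 went from 23.0, 22.0 and 18.0 TPM to 33.2, 31.9 and 20.6 TPM at 5% CO2, and at 10% CO2 from 18.7, 15.5 and 15.5 TPM to 17.7, 13.9 and 15.6 TPM. The log2 fold change was called in shNT cells at 5% CO2 (1.10 ± 0.14 SE, edgeR adjusted p = 5.64e-05) and 10% CO2 (1.03 ± 0.19 SE, edgeR adjusted p = 0.00108) and in shNR4A3 cells at 5% CO2 (0.66 ± 0.18 SE, edgeR adjusted p = 0.0189). It was not called in shNR4A2 cells (0.38 ± 0.20 and 0.19 ± 0.18) or in shNR4A3 cells at 10% CO2 (0.20 ± 0.13). The call in shNR4A3 cells at 5% CO2 was lost without LPS replicate 1 (adjusted p = 0.0546) and without basal replicate 2 (0.0644) or 3 (0.0594).

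The difference of the TLR4 response between lines was tested directly. Against shNT cells it was -0.71 ± 0.29 at 5% CO2 and -0.85 ± 0.32 at 10% CO2 in shNR4A2 cells, and -0.43 ± 0.27 and -0.84 ± 0.27 in shNR4A3 cells (SE, edgeR interaction, adjusted p 0.42 at the lowest). None was called. With the replicate number as a block in the fit, for shNR4A3 cells at 10% CO2, where the replicate numbers paired the libraries, the value was -0.85 (adjusted p = 0.00195), in a comparison in which 1.01% of all genes were called. None of the other 8 genes was called there with the block. Over the 36 interaction tests of these 9 genes between lines without the block, 0 were called by edgeR (0% of all genes at 5% CO2, and 0.0451% and 0.198% at 10% CO2) and 0 by DESeq2, with 5 at an unadjusted p under 0.05.

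CD14 (chr5:140631728-140633701, minus strand) varied widely between replicates. In shNT cells at 5% CO2 replicates 1, 2 and 3 held 32.2, 18.2 and 17.3 TPM without and 21.7, 11.8 and 11.6 TPM with LPS, and in shNR4A2 cells 66.7, 39.9 and 44 TPM against 45.5, 26.5 and 23.8 TPM. The groups overlapped in all 6 comparisons, but each of the 18 same-numbered pairs was lower with LPS, in TPM and on the TMM scale alike. The log2 fold change was -0.33 to -0.41 and was called in 0 of 6 comparisons (edgeR adjusted p from 0.302 to 0.56; 0 of 6 at an unadjusted p under 0.05 and 0 of 6 with DESeq2). A fit with the replicate number as a block compares libraries of the same number. The numbers paired the libraries in 5 of these comparisons (same-numbered libraries deviated together), and with the block CD14 was called lower in 4 of the 5. The blocked values were -0.40 ± 0.12 (adjusted p = 0.0228) and -0.42 ± 0.11 (0.0031) in shNR4A2 cells and -0.36 ± 0.12 (0.0247) and -0.42 ± 0.10 (0.00101) in shNR4A3 cells, at 5% and 10% CO2. With the block 27.7%, 42.3%, 35.6% and 52.2% of all genes were called in these 4 comparisons, and 40.4% in shNT cells at 10% CO2. Shared replicate differences also touched TLR4 and MYD88: on the TMM scale replicate 1 was the highest of 3 in 12 of 12 conditions for TLR4, CD14 and MYD88. With the block TLR4 was also called in shNR4A2 cells at 5% CO2 (0.39 ± 0.13, adjusted p = 0.0439) and shNR4A3 cells at 10% CO2 (0.20 ± 0.08, adjusted p = 0.0413).

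**Figure D3:**
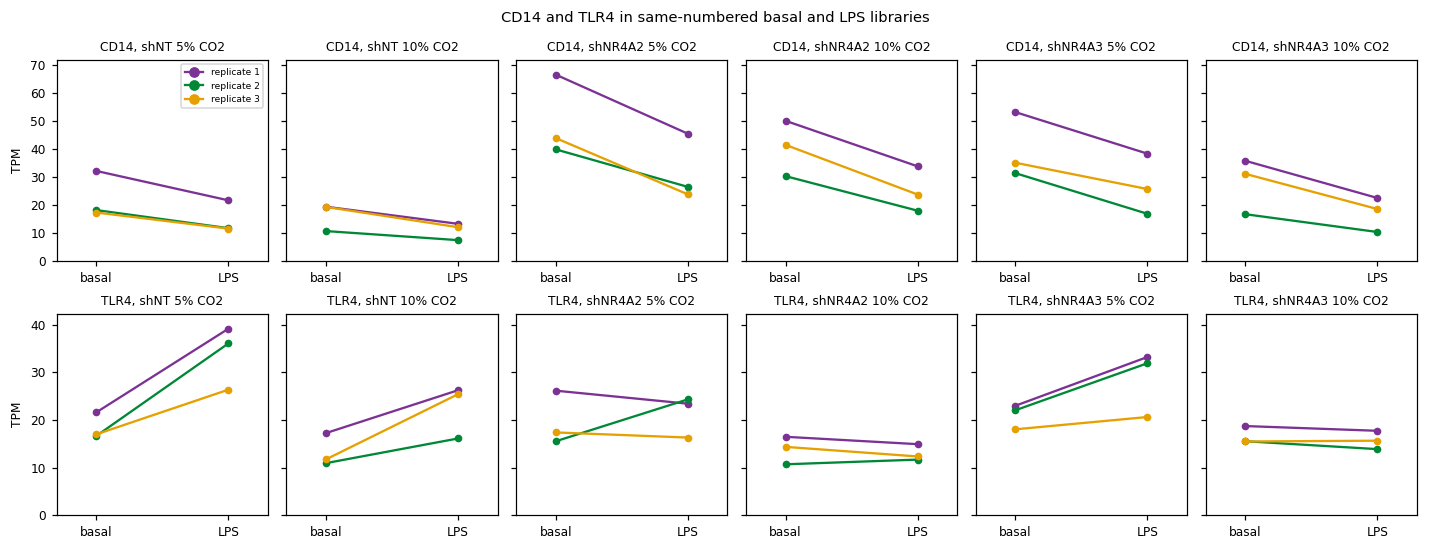
CD14 (upper row) and TLR4 (lower row) in TPM (y axis, from 0) in basal and LPS libraries (x axis), joined by replicate number (colour), for each line and CO2 level. All 18 CD14 lines slope down, from at most 66.7 TPM, whereas the TLR4 lines rise in all 3 replicates of shNT cells at both CO2 levels and of shNR4A3 cells at 5% CO2.

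LY96 was not called in any LPS comparison (log2 fold change -1.07 to 0.66, SE 0.40 to 0.74). Its basal libraries held 1 to 20 counts and its LPS libraries 1 to 17. A change in the transcript of MD-2 was not detectable at this depth. The 6 comparisons were also averaged in a single fit to all 36 libraries, an analysis chosen after the data were seen. There 6 of the 9 genes rose (30.5% of all genes did) and TIRAP fell by 0.99 ± 0.05 on the log2 scale (34.1% of all genes fell). IRAK3 rose by 0.32 ± 0.04 on the TMM scale (edgeR adjusted p = 1.3e-09). TLR4 rose by 0.58 ± 0.10 (edgeR adjusted p = 4.53e-06), but its values in the single comparisons ran from 0.19 to 1.10, with 3 of 6 called. CD14 stood at -0.38 ± 0.17 (edgeR adjusted p = 0.0512, called in 14 of 36 fits that left out 1 library). With the replicate block CD14 was called (-0.39 ± 0.06, edgeR adjusted p = 1.22e-06), although over all genes the numbers did not pair the 36 libraries.

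The second comparison asked how 10% against 5% CO2 changed the transcripts. Within single lines almost nothing was called. In basal cells 0 of the 9 genes passed in shNT, shNR4A2 or shNR4A3 cells, where 0.615%, 0.0113% and 1.13% of all genes did; at an unadjusted p under 0.05 there were 2 genes in each line, and DESeq2 called 0, 0 and 1. With LPS 1 gene passed in shNT cells (4.47% of all genes were called higher and 3.72% lower; 3 of the 9 had an unadjusted p under 0.05, and DESeq2 called 2) and 0 passed in shNR4A2 (0.198%) and shNR4A3 cells (2.13%), again with 2 genes each at an unadjusted p under 0.05 and 1 each called by DESeq2. The called gene was TLR2 in LPS-treated shNT cells, which held 213, 200.3 and 204.5 TPM at 5% CO2 and 246, 209.5 and 237 TPM at 10% CO2. The groups overlapped, the log2 fold change was 0.30 ± 0.07 (SE, edgeR adjusted p = 0.0243), and leaving out any of 5 of the 6 libraries ended the call (adjusted p up to 0.0943).

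TLR4 had a negative log2 fold change in all 6 comparisons, -0.32 ± 0.13 to -0.45 ± 0.20 in basal cells and -0.45 ± 0.18, -0.66 ± 0.17 and -0.81 ± 0.19 in LPS-treated shNT, shNR4A2 and shNR4A3 cells, with edgeR adjusted p from 0.0752 to 0.594. With LPS the 10% libraries all lay below the 5% libraries in each line, at 16.1 to 26.2 against 26.3 to 39.2 TPM in shNT, 11.7 to 14.9 against 16.3 to 24.3 TPM in shNR4A2 and 13.9 to 17.7 against 20.6 to 33.2 TPM in shNR4A3 cells. The same separation was seen in 23.2%, 13.1% and 15.6% of all tested genes. Separation was judged in TPM only, and in shNT cells the groups nearly met (26.2 against 26.3 TPM). At 10% CO2 the median tested gene stood at -0.137 on the log2 TPM scale there, and at -0.0548 and -0.0497 in the other lines. DESeq2 called TLR4 in these 3 LPS comparisons (adjusted p = 0.0407, 0.0207 and 0.000507). Of the 6 edgeR fits per line that left out 1 library, 1 called it (adjusted p = 0.0491, 0.0112 and 0.0193). In each line that fit left out replicate 3 with LPS at 5% CO2, the lowest of its group in TPM. The highest edgeR adjusted p among the 6 fits was 0.369, 0.403 and 0.259. In basal shNR4A2 cells, where the replicate numbers paired the libraries, the value with the block was -0.44 ± 0.11 (edgeR adjusted p = 0.0437), in a comparison in which 2.04% of all genes were called.

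Averaged over the 3 lines in the fit to all 36 libraries, 3 genes were lower at 10% CO2 in basal cells (8.72% of all genes were) and 0 higher (8.67%). They were IRAK2 (-0.50 ± 0.17, edgeR adjusted p = 0.0377), IRAK3 (-0.16 ± 0.05, adjusted p = 0.0267) and TLR4 (-0.39 ± 0.14, adjusted p = 0.0465). These calls lay close to the threshold, and without a filter on low counts none of the 3 was kept; fits that left out 1 library kept the call in 25 of 36 for IRAK2, 29 for IRAK3 and 19 for TLR4, whose adjusted p ranged from 0.0188 to 0.128. In LPS-treated cells TLR4 was also lower (-0.64 ± 0.13, edgeR adjusted p = 0.000628), as were 15.3% of all genes. MYD88 (0.29 ± 0.06, adjusted p = 0.000672) and TLR2 (0.22 ± 0.06, adjusted p = 0.00214) were higher there (14% of all genes were). These 3 held in all 36 fits that left out 1 library. For TLR4 the difference between the CO2 values with and without LPS was -0.25 ± 0.19 and was not called (edgeR adjusted p = 0.62). CD14 stood at -0.38 ± 0.23 and -0.41 ± 0.24 in basal and LPS-treated cells and was not called (edgeR adjusted p = 0.281 and 0.219). With the replicate block it was called in both (-0.37 ± 0.09, edgeR adjusted p = 0.00151, and -0.40 ± 0.09, 0.000792). Over all genes, however, the numbers did not pair the 36 libraries.

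**Figure D4:**
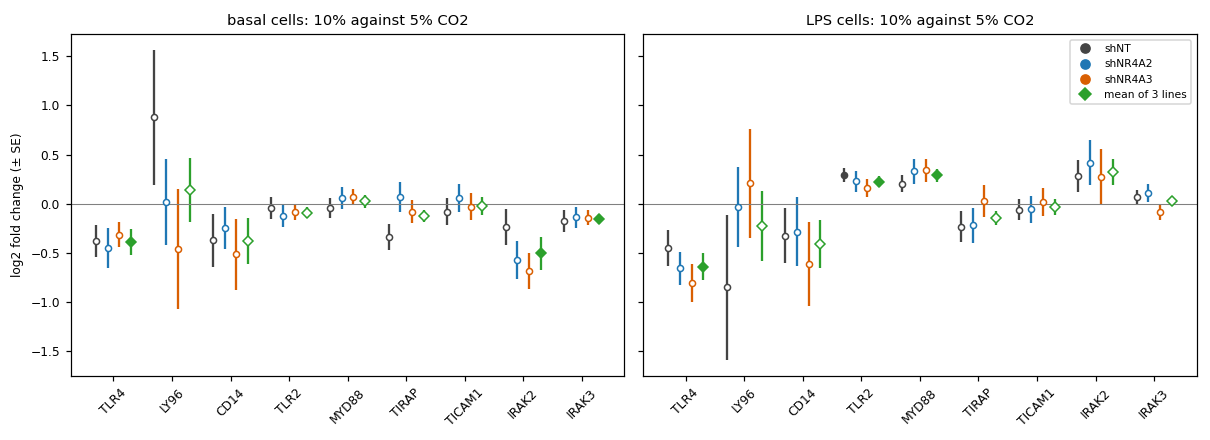
Log2 fold change at 10% against 5% CO2 (y axis, ± SE) for the 9 tested genes (x axis) in basal cells (left) and LPS-treated cells (right), by line (circles) and averaged over the 3 lines (diamonds); filled symbols have an adjusted p under 0.05. TLR4 lies below 0 throughout, and IRAK2 lies below 0 in basal cells and above 0 with LPS.

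IRAK2 values differed in sign between basal and LPS-treated cells, but those with LPS were not called by edgeR. In basal cells the value was below 0 in each line (-0.24 ± 0.19, -0.57 ± 0.19 and -0.68 ± 0.18). In shNR4A2 cells IRAK2 held 5.13 to 5.51 against 6.71 to 9.76 TPM (10.4% of all tested genes lay wholly below). In LPS-treated cells the value was above 0 in each line (0.28 ± 0.16, 0.42 ± 0.23 and 0.27 ± 0.28). In shNR4A2 cells IRAK2 then held 256 to 276 against 137 to 240 TPM (7.7% of all tested genes lay wholly above). With LPS the libraries overlapped in shNT and shNR4A3 cells. Averaged over the lines the value with LPS was 0.32 ± 0.13 (edgeR adjusted p = 0.0589, DESeq2 0.0416). The difference of the LPS response between 10% and 5% CO2 was 0.52 ± 0.24 in shNT, 0.99 ± 0.31 in shNR4A2 and 0.96 ± 0.40 in shNR4A3 cells, none of them called within a line (edgeR adjusted p = 0.851, 0.876 and 0.861; 0.0226%, 0% and 0% of all genes were). Averaged over the lines it was 0.83 ± 0.21 (edgeR adjusted p = 0.0349). TLR2 also had a positive averaged difference, of 0.32 ± 0.08 (edgeR adjusted p = 0.0252). These were 2 of the 9 genes, where 1.19% of all genes were called higher and 0.801% lower. The averaged CO2 value of TLR2 in basal cells, however, was -0.09 ± 0.06 and was not called (edgeR adjusted p = 0.28). The IRAK2 call was kept in 21 and the TLR2 call in 35 of 36 fits without 1 library, the exception for TLR2 being shNT replicate 2 with LPS at 5% CO2 (adjusted p = 0.0539). Of 36 tests of the CO2 response between lines on these 9 genes, 0 were called by edgeR (0% of all genes) and 0 by DESeq2, with 1 at an unadjusted p under 0.05.

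The third comparison set each knockdown line against shNT cells under the same CO2 and LPS. The hairpin lines were compared with 1 control line, so line and hairpin cannot be told apart. CD14, the LPS co-receptor, was higher in shNR4A2 cells in all 4 conditions with no overlap (10.3% to 17.4% of all genes lay wholly above), for example at 66.7, 39.9 and 44 TPM against 32.2, 18.2 and 17.3 TPM in basal cells at 5% CO2. It was called in 3 of the 4, with log2 fold changes of 1.15 ± 0.25 (5% CO2, basal, edgeR adjusted p = 0.0165), 1.27 ± 0.23 (10% CO2, basal, 0.00402) and 1.19 ± 0.29 (10% CO2, LPS, 0.0266). In basal cells at 5% CO2 the call was lost without shNT replicate 2 or 3 or shNR4A2 replicate 1 (adjusted p up to 0.0663), and with LPS at 10% CO2 without shNT replicate 2 (0.0617) or 3 (0.079) or shNR4A2 replicate 3 (0.0677). With LPS at 5% CO2 it was 1.15 ± 0.34 (adjusted p = 0.103), and with the replicate block 1.15 ± 0.12 (adjusted p = 5.25e-12). In shNR4A3 cells CD14 was 0.64 to 0.92 higher on the log2 scale and its libraries overlapped those of shNT cells in all 4 conditions. There it was called in 0 of 4 without the block and in 4 of 4 with it (adjusted p from 5.37e-05 to 0.00283), the numbers pairing the libraries in all 4.

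TLR2 was higher in shNR4A3 than in shNT cells in 4 of 4 conditions, and no libraries overlapped (9.16% to 16.5% of all genes lay wholly above). It held 96.9, 112 and 119.5 TPM against 79.3, 66.9 and 79.2 TPM in basal cells at 5% CO2 and 312, 299.6 and 318 TPM against 246, 209.5 and 237 TPM with LPS at 10% CO2. The log2 fold changes were 0.59 ± 0.09 and 0.40 ± 0.07 there, and 0.54 in the remaining conditions (edgeR adjusted p from 0.00107 to 0.00711). In shNR4A2 cells TLR2 stood at 0.23 to 0.34 with no overlap (10.3% to 17.4% of all genes), called in 0 of 4 conditions without the block and in all 3 conditions where the numbers paired the libraries with it (adjusted p from 0.000511 to 0.0011; with LPS at 10% CO2 34.8% of all genes were called with the block).

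In shNR4A2 cells the tests called 1 of the 9 genes higher (3.22% of all genes) and 1 lower (2.47%) in basal cells at 5% CO2, and 1 higher (4.55%) and 1 lower (3.4%) in basal cells at 10% CO2. With LPS the counts were 0 at 5% CO2 (6.21% of all genes; 5 at an unadjusted p under 0.05, 2 with DESeq2) and 4 higher (9.29%) and 2 lower (9.58%) at 10% CO2. With the block, 6 were called in basal and 6 in LPS-treated cells at 5% CO2, where 21.5% and 24.7% of all genes were. In shNR4A3 cells 0 were lower in each condition (2.83%, 3.35%, 2.17% and 7.21% of all genes), and 2 were higher (3.36%) in basal cells at 5% CO2, 1 (3.49%) in basal cells at 10% CO2, 1 (3.24%) with LPS at 5% CO2 and 4 (7.3%) with LPS at 10% CO2. The second gene in basal cells at 5% CO2 was IRAK2 (0.62 ± 0.16, edgeR adjusted p = 0.0287), a call lost without any of 5 of the 6 libraries. With the block these counts were 3, 3, 6 and 6, where 13%, 13.5%, 18.7% and 24.9% of all genes were called, the last with TLR4 lower.

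IRAK3, the brake on IRAK signalling, was called lower in shNR4A2 cells in 3 of the 4 conditions. The values were -0.41 ± 0.10 (5% CO2, basal, edgeR adjusted p = 0.0383), -0.38 ± 0.11 (10% CO2, basal, 0.0455) and -0.27 ± 0.07 (10% CO2, LPS, 0.0209). With LPS at 5% CO2 IRAK3 was not called (edgeR adjusted p = 0.0881). With LPS at 10% CO2 it held 44.3 to 45.1 TPM against 47.6 to 56.7 TPM. Each call was lost without any of 4 of the 6 libraries in its comparison. In shNR4A3 cells IRAK3 lay within 0.19 of shNT cells on the log2 scale.

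With LPS at 10% CO2 more of the genes were called in both lines. IRAK2 held 256 to 276 TPM in shNR4A2 and 235 to 289 TPM in shNR4A3 cells against 148 to 182 TPM in shNT cells (0.66 ± 0.09, edgeR adjusted p = 0.000392, and 0.65 ± 0.10, 0.00112). TICAM1 was higher by 0.42 ± 0.10 and 0.49 ± 0.11 (adjusted p = 0.0103 and 0.0137); these calls were lost without shNT replicate 3 in both lines (0.0622 and 0.0693) and without shNT replicate 2 in shNR4A3 cells (0.0512). MYD88 was higher in shNR4A3 cells (0.55 ± 0.08, adjusted p = 0.000684) and not called in shNR4A2 cells (0.03 ± 0.09, adjusted p = 0.857). TLR4 was lower in shNR4A2 cells, at 11.7 to 14.9 against 16.1 to 26.2 TPM (-0.82 ± 0.18, adjusted p = 0.0119, and 0.0596 without shNR4A2 replicate 3). In shNR4A3 cells it was -0.53 ± 0.16 (adjusted p = 0.0555), -0.52 ± 0.08 with the block (adjusted p = 0.000178), and called without shNT replicate 2 (0.00277) or shNR4A3 replicate 1 (0.0475). LY96 was called higher in shNR4A2 cells at 11 to 12 counts against 1 to 6 (1.91 ± 0.60, adjusted p = 0.0425), and any of 5 of the 6 libraries left out ended that call. As LY96 passed the filter on low counts mostly through shNR4A2 libraries, the call is also not independent of the filter.

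Averaged over the 4 conditions in the fit to all 36 libraries, shNR4A2 cells had 5 of the 9 genes higher (20.2% of all genes) and 3 lower (20.7%). The higher were CD14 (1.19 ± 0.21), LY96 (1.45 ± 0.29), TICAM1 (0.40 ± 0.07), IRAK2 (0.34 ± 0.13) and TLR2 (0.28 ± 0.05), and the lower IRAK3 (-0.34 ± 0.04), TLR4 (-0.33 ± 0.12) and TIRAP (-0.17 ± 0.06), with edgeR adjusted p from 1.18e-07 to 0.0401. LY96 passed the filter on low counts mostly through its shNR4A2 libraries, so its value there is not independent of the filter. It held 6 to 20 counts in shNR4A2, 1 to 14 in shNT and 2 to 12 in shNR4A3 libraries. The IRAK2 and TLR4 calls were lost in 15 and 6 of the 36 fits without 1 library. The averaged TLR4 value joined unlike conditions: in basal cells TLR4 stood at 0.10 ± 0.18 and 0.02 ± 0.19 (edgeR adjusted p = 0.828 and 0.971), and with LPS at -0.61 ± 0.17 (0.0628) and -0.82 ± 0.18 (0.0119), at 5% and 10% CO2. In shNR4A3 cells 5 were higher (16% of all genes) and 0 lower (16.9%): CD14 (0.79 ± 0.21), IRAK2 (0.53 ± 0.13), TLR2 (0.52 ± 0.05), MYD88 (0.34 ± 0.05) and TICAM1 (0.32 ± 0.08), with edgeR adjusted p from 1.63e-10 to 0.00478. Both lines were set against the same shNT libraries.

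**Figure D5:**
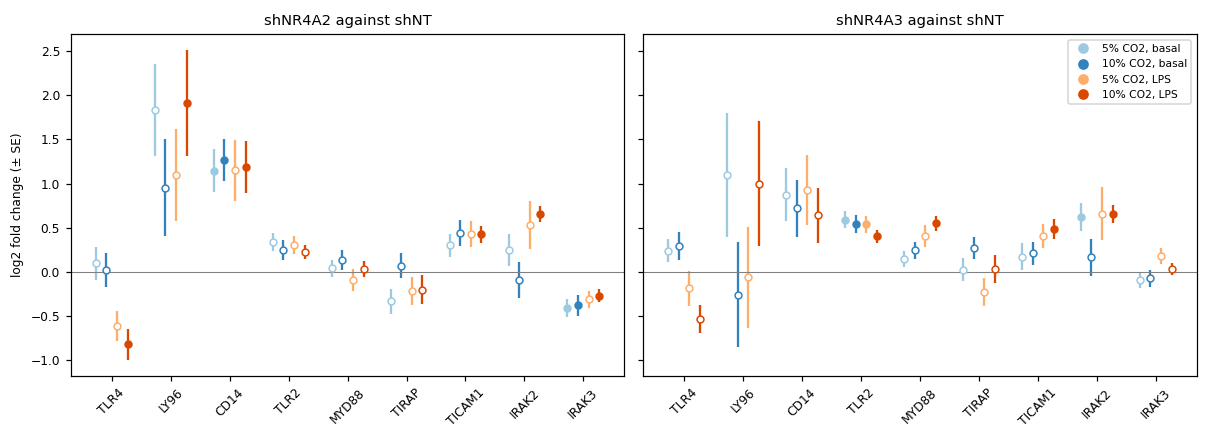
Log2 fold change of shNR4A2 (left) and shNR4A3 (right) against shNT cells (y axis, ± SE) for the 9 tested genes (x axis) in the 4 conditions (colour); filled symbols have an adjusted p under 0.05. CD14 lies between 1.15 and 1.27 in shNR4A2 cells and TLR2 between 0.40 and 0.59 in shNR4A3 cells, where TLR2 is filled in all 4 conditions.

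Over the 12 conditions the order of TLR4 ran from LPS-treated shNT cells at 5% CO2 (33.9 ± 6.68 TPM, SD, n = 3) through LPS-treated shNR4A3 cells at 5% CO2 (28.6 ± 6.93) and LPS-treated shNT cells at 10% CO2 (22.6 ± 5.63) down to LPS-treated shNR4A2 cells at 10% CO2 (13 ± 1.72). CD14 ran from basal shNR4A2 cells at 5% CO2 (50.2 ± 14.4 TPM, SD, n = 3) to LPS-treated shNT cells at 10% CO2 (11 ± 3.08). For both genes the range of every condition overlapped that of the next in the order. Among the 17720 tested genes the 3 most like TLR4 over the 12 condition means of log2 CPM (counts scaled to library size) were PLEKHH3 (Pearson r = 0.943), SRSF3 (0.928) and FBXO33 (0.916). For CD14 they were ADAM19 (0.976), SULF2 (0.974) and ARHGAP26 (0.971), and for TLR2 SIRPA (0.994), NFKBIE (0.994) and TLR7 (0.993). The points share libraries and line, and genes with a large LPS or line difference resemble each other by this measure.

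The other genes of the pathway were followed in 3 lists. Of 16 tested Toll-like receptors, co-receptors and chaperones, 1 rose and 2 fell with LPS in shNT cells at 5% CO2 (11.2% and 11.6% of all tested genes did), with a median of -0.07. The riser was TLR7, an endosomal receptor for single-stranded RNA (5.38 ± 0.27, edgeR adjusted p = 3.4e-10), and the others were CD180 (-1.53 ± 0.37, adjusted p = 0.00815), a TLR4-like receptor of B cells and monocytes, and TLR6 (-0.80 ± 0.20, adjusted p = 0.0112), a partner of TLR2. In the same list 9, 8, 8 and 9 genes were higher in shNR4A2 cells in the 4 knockdown comparisons and 0 lower; in shNR4A3 cells 6, 6, 8 and 9 were higher and 0 lower. Of all tested genes 3.22%, 4.55% and 9.29% were called higher in shNR4A2 cells (basal at 5% and 10% CO2, LPS at 10% CO2), 6.21% were called in either direction with LPS at 5% CO2, and 3.24% to 7.3% were called higher in shNR4A3 cells. The median log2 fold change of the list was 0.73 to 0.83 in shNR4A2 and 0.64 to 0.80 in shNR4A3 cells, against -0.01 to 0.00 for all tested genes. Averaged over conditions CD180 was 1.07 ± 0.17 higher in shNR4A2 and 1.52 ± 0.17 in shNR4A3 cells, and TLR7 1.09 ± 0.16 and 1.21 ± 0.15.

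Of 21 kinases and ubiquitin enzymes downstream, 8 rose and 2 fell with LPS in shNT cells at 5% CO2 (11.2% and 11.6% of all tested genes did). The largest changes were in MAP3K8 (3.41 ± 0.24, edgeR adjusted p = 1.77e-05), the kinase that activates ERK in this pathway, PIK3AP1 (1.84 ± 0.09), PELI1 (1.70 ± 0.15) and TRAF3 (1.69 ± 0.10). Averaged over the lines, the LPS response differed between 10% and 5% CO2 in 4 of the 21, 3 of them higher (1.19% of all genes) and 1 lower (0.801%). The differences were 1.23 ± 0.27 for MAP3K8 (edgeR adjusted p = 0.0171), 0.56 ± 0.12 for PIK3AP1 (0.00787), 0.47 ± 0.09 for TAB2 (0.00416) and -0.39 ± 0.10 for TAB1 (0.0314), the last pair, subunits of the TAK1 complex, being named after their values were seen. Of 9 tested restraining factors, 2 rose and 2 fell with LPS in shNT cells at 5% CO2 (again 11.2% and 11.6% of all tested genes). TNFAIP3, which encodes the deubiquitinase A20, rose most (5.86 ± 0.20, adjusted p = 1e-07), followed by CYLD (1.45 ± 0.10), while INPP5D (-0.28 ± 0.10) and TOLLIP (-0.26 ± 0.09) fell. In the CO2 comparisons within lines, 0 to 1 genes of the receptor list and of the restraining list were called in each. Of the kinases 5 were called in LPS-treated shNT cells, 3 higher and 2 lower, and 0 to 2 in the others. Of all genes 4.47% were called higher and 3.72% lower in LPS-treated shNT cells, and 0.0113% to 2.13% were called in the others.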

How the data were processed

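PolyA-selected RNA from 36 THP-1 libraries (12 conditions, 3 replicates each) was sequenced. Per the labels and the study's methods, the authors used Trimmomatic 0.36 for trimming, STAR 2.5.2b for alignment (GRCh38) and counted unique hits per gene with featureCounts of Subread 1.5.2; the deposited values are raw counts. Annotation release and strand setting are not given in the sources used here. The libraries held 16171161 to 23929138 counts.

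Genes kept by filterByExpr (minimum count 10, minimum total 15; 17720 genes) were tested with edgeR 4.0.16 (R 4.3.3): TMM scaling within each comparison, robust quasi-likelihood test, Benjamini-Hochberg adjustment over all 17720 genes, called under 0.05. SE is the log2 fold change divided by the square root of F. TPM was computed from counts and the gene lengths per the file headers. Fits were tested on simulated counts with a single dispersion and no replicate effect, which cannot judge the replicate block or calls near the threshold.

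Alternatives were RLE scaling, library size only, no filter, DESeq2 1.42.0 (the authors' test), a replicate block, a single model over the 36 libraries, and each library left out. The averaged contrasts were added after the data were seen. Replicate numbers were taken to pair libraries where every pair's deviations from the group means correlated above 0.1 over 9374 genes; this held in 14 of 31 comparisons (r from -0.47 to 0.73 over all pairs). The members and lists were chosen with earlier results of these data known. Of the listed pathway genes, up to 4 per list were named, those with the largest called LPS response in shNT cells at 5% CO2.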

Additional observations from a re-analysis of the deposited data

Results flagged for a closer look

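The LPS response of TLR4 in shNR4A3 cells at 10% CO2 was smaller than that in shNT cells by a direct test with the replicate block (-0.85, edgeR adjusted p = 0.00195). Without the block the value was -0.84 (adjusted p = 0.42).

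The LPS response of IRAK2 was larger at 10% than at 5% CO2 when averaged over the 3 lines (0.83, edgeR adjusted p = 0.0349), as was that of TLR2 (0.32, edgeR adjusted p = 0.0252). In shNR4A2 cells the CO2 values of IRAK2 were -0.57 in basal and 0.42 in LPS-treated cells, and those of TLR2 -0.13 and 0.23. In TPM the 10% libraries of both genes lay wholly below the 5% libraries in basal cells, as did 10.4% of all tested genes. With LPS they lay wholly above, as did 7.7%. The difference within that line was tested and not called (IRAK2 0.99, edgeR adjusted p = 0.876, and TLR2 0.36, adjusted p = 0.94). In shNT and shNR4A3 cells with LPS the libraries of both genes overlapped.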

How the results depend on the processing

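No call reversed under any alternative. The number of the 9 genes called in the LPS comparisons stayed within 1.5 times of that reported under each setting. On library size alone, however, 6 LPS calls were lost: MYD88 in shNT cells at 5% CO2 (adjusted p = 0.244) and shNR4A2 cells at 10% CO2 (0.0731), IRAK3 in shNT and shNR4A2 cells at 10% CO2 (0.325 and 0.0706) and shNR4A3 cells at 5% CO2 (0.139), and TLR4 in shNR4A3 cells at 5% CO2 (0.0575). CD14 in shNR4A2 cells at 10% CO2 was then called lower (-0.66, adjusted p = 0.0479). With the replicate block the CO2 counts became 1 (shNR4A2 basal, from 0), 1 (shNR4A2 with LPS, from 0), 3 (shNR4A3 basal, from 0) and 2 (shNR4A3 with LPS, from 0), though the numbers paired the libraries only in the first. The paired knockdown counts rose with the block to 6 (shNR4A2, 5% CO2, basal, from 2), 6 (shNR4A2, 5% CO2, LPS, from 0), 6 (shNR4A3, 5% CO2, LPS, from 1) and 3 (shNR4A3, 10% CO2, basal, from 1). The block gave 2 and 1 called genes for the LPS response between lines at 10% CO2 (shNR4A2, not paired, and shNR4A3, from 0) and 5 for the averaged CO2 response with LPS (from 3). Judged over all genes, the numbers did not pair the 36 libraries. For CD14 alone, replicate 1 lay above its condition mean in 12 of 12 conditions (mean deviation 0.50 on the log2 scale). Replicate 2 lay below it in 12 of 12 (-0.45), and replicate 3 above in 6 and below in 6. With the block CD14 was called in the averaged comparisons for LPS (-0.39, adjusted p = 1.22e-06) and for CO2 in basal (-0.37, 0.00151) and LPS-treated cells (-0.40, 0.000792).

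DESeq2 called 2 genes for CO2 in shNT cells with LPS (from 1), 1 each in shNR4A2 cells with LPS and in shNR4A3 cells without and with LPS (from 0), 2 in the shNR4A2 knockdown at 5% CO2 with LPS (from 0) and 3 in the shNR4A3 knockdown there (from 1). Without a filter the CO2 counts were 3 in shNT cells with LPS, 1 in shNR4A2 cells with LPS, and 1 and 2 in shNR4A3 cells without and with LPS. The knockdown counts were then 3 (shNR4A2) and 3 (shNR4A3) with LPS at 5% CO2, and 1 and 2 in basal cells at 10% CO2. The interaction counts were 1 (LPS by CO2, shNR4A2), 2 and 1 (LPS by line at 10% CO2), and the averaged counts 0 (CO2, basal), 5 (shNR4A2 knockdown) and 1 (LPS by CO2). The fit to all 36 libraries gave 0 (CO2, shNT, LPS), 1 (CO2, shNR4A3, LPS), 4 and 3 (shNR4A2 knockdown at 5% CO2, basal and LPS), and 1 and 2 (shNR4A3 knockdown there). RLE scaling and library size alone each gave 1 for the shNR4A2 knockdown in basal cells at 10% CO2 (from 2). The cause of these moves was not tested.

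Leaving out 1 library gave 0 to 1 called genes for CO2 in shNT basal, shNR4A2 LPS and shNR4A3 LPS cells and 0 to 2 in shNT cells with LPS. In the shNR4A2 knockdown it gave 0 to 2 in basal and LPS-treated cells at 5% CO2, 1 to 3 in basal and 2 to 5 in LPS-treated cells at 10% CO2. In the shNR4A3 knockdown it gave 1 to 2 and 1 to 4 at 5% CO2 and 1 to 3 in basal cells at 10% CO2. The averaged counts were 0 to 3 for basal CO2 and 0 to 2 for LPS by CO2. With 1 to 20 counts of LY96 and 0 to 13 of TICAM2 per library, depth limits both genes.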
